A study of Mus musculus with 9 samples.

Results

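The genes described here carry inhibitory transmission by GABA and glycine in mouse spinal cord. They are 26 of the 40879 gene symbols in the deposited tables and were picked by symbol for their function, at a time when earlier results of these data were known. They comprise 2 enzymes that make GABA, 4 transporters for GABA and glycine, 2 chloride transporters, 2 postsynaptic scaffold and adhesion proteins, 9 GABA-A receptor subunits, 2 GABA-B receptor subunits and 5 glycine receptor subunits. RNA of 9 spinal cord samples from male mice was sequenced, 3 in each of 3 groups: sham surgery, SNI, and SNI treated with LDN193189. SNI is the usual abbreviation of spared nerve injury, a nerve lesion used as a model of neuropathic pain, and LDN193189 is a small-molecule inhibitor of the BMP type I receptors, ACVR1 among them. Both injured groups carry the lesion, and no group received LDN193189 without it. Strain, age, cord segment, side, time after surgery, dose, route and whether the other groups received a vehicle are not given in the sources used here. Replicates are labelled as separate biosamples, and nothing further says how they were obtained, so the p-values measure the spread between these samples. The table columns carry the letters S, N and L with a number, which were read as sham, SNI and SNI+LDN193189.

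GABA is made from glutamate by the glutamate decarboxylases, and both GABA and glycine are loaded into synaptic vesicles by the same carrier. GABA-A and glycine receptors are chloride channels, so the current they pass depends on the chloride gradient that the cation-chloride cotransporters set, whereas GABA-B receptors act through G proteins. In the dorsal horn these synapses limit the relay of touch and pain signals, and weakened inhibition has long been studied in neuropathic pain.

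Each library held between 33432776 and 37190467 counted reads, and the 18245 genes that passed a filter on low counts were tested in 1 model. Of the 26 inhibitory genes 25 passed that filter. Levels of 1 gene between libraries are given in CPM (counts scaled to the library total), and levels of different genes are compared in the deposited FPKM, which is per transcript length. No inhibitory gene differed between any 2 groups after adjustment over all genes tested, and the gene by gene values below show how close the groups lay. The libraries were not alike in tissue content. Summed over 10 Schwann cell and nerve root markers, sham replicate 3 held 6381 CPM and the other 8 libraries 382 to 2335 CPM. Meningeal fibroblast markers also summed highest in sham replicate 3, at 1302 CPM, and the 14 general neuron markers summed lowest there, at 11066 CPM against 11732 to 13026 CPM elsewhere. Skeletal muscle markers summed to 1053 CPM in sham replicate 1 and to 81.1 to 119.7 CPM in the others. Microglial markers summed to 348 to 405 CPM in sham, 408 to 470.1 CPM in SNI and 450.2 to 497 CPM in SNI+LDN193189. In bulk tissue, fewer cells of a type and less RNA per cell cannot be told apart.

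Of the 26 genes, 4 lie beside each other on chromosome 5 (GRCm38, positions 70751047 to 72149037, 1.40 Mb): Gabrg1, Gabra2, Gabra4 and Gabrb1. Gabra2 and Gabrb1 gave the smallest p-values of the tested inhibitory genes, so the sequences upstream of the start sites in this cluster are shown. Gabra4 and Gabrb1 start head to head on opposite strands and overlap by 196 bp, and 197 of the 250 bases upstream of Gabrb1 lie in exons, so that window is not shown. The Gabra4 stretch is the 195 bases that hold no exon. The sequences are from RefSeq (GRCm38.p6), read 5′ to 3′ on the strand of the gene, at chr5:70842618-70842867 (minus strand) for Gabrg1, chr5:71095850-71096099 (minus strand) for Gabra2 and chr5:71658364-71658558 (minus strand) for Gabra4.
Gabrg1: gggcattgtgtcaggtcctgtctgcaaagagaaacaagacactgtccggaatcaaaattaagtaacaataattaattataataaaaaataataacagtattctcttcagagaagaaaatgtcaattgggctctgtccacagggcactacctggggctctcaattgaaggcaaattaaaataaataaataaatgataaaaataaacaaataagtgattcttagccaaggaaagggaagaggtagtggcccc
Gabra2: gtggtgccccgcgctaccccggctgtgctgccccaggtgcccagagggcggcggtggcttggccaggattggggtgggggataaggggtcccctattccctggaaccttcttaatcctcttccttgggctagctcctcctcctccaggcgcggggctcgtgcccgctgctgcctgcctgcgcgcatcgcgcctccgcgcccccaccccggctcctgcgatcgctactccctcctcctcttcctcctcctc
Gabra4: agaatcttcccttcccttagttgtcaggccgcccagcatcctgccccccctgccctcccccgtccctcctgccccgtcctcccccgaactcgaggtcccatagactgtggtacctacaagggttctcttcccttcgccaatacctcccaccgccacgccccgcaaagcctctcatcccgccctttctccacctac
The Gabra2 stretch is 70.0% G and C with 18 CpG dinucleotides, and the Gabra4 stretch 63.6% with 10. The Gabrg1 stretch is 35.6% G and C with 1 CpG, so neighbouring receptor genes differ widely in the base composition of their upstream sequence.

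Because LDN193189 acts on BMP receptors, the promoter windows (250 bases before to 50 after the start) were searched on both strands for GGCGCC, a palindrome found in BMP-SMAD response elements, and for the SMAD palindrome GTCTAGAC. Windows were found for 23 of the 26 genes, and Slc12a2, Gabrd and Glra1 had none. GGCGCC occurred in 5 of the 31 windows of the inhibitory genes (Gabbr1, Gabbr2, Gabra5, Gphn and Slc6a11) and in 11.9% of the 32851 windows of all genes. Over the 250 bases before the start, the median share of G and C was 60.4% for the inhibitory genes and 52.4% for all genes. GTCTAGAC occurred in none of the 31 windows of the inhibitory genes and in 0.213% of all windows. The same held for the cyclic AMP response element TGACGTCA, present in 1.79% of all windows, and for TTCAGCACC, a part of the element bound by the neuronal repressor REST, present in 0.371%. A match describes the letters of the window and is not evidence of binding. The 2 upstream stretches that hold GGCGCC and no exon are shown with the motif in capitals, from chr17:37045716-37045965 (plus strand) for Gabbr1 and chr6:114130991-114131240 (plus strand) for Slc6a11.
Gabbr1: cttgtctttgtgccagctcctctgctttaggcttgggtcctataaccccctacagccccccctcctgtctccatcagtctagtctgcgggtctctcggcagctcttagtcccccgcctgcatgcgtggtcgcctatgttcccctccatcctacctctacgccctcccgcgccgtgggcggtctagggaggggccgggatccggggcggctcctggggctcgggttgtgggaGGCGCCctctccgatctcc
Slc6a11: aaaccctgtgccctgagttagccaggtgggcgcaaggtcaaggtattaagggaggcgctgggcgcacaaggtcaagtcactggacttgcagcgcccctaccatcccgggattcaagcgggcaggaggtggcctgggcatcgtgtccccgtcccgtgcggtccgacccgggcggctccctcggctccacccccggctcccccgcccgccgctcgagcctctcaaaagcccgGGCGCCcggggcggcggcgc
Neither Gabbr1 nor Slc6a11 differed between the groups after adjustment, as described with the other receptor and transporter genes.

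Levels per transcript length spanned a wide range. Slc6a11, the astrocytic and neuronal GABA transporter GAT3, was highest at 131 ± 7.40 FPKM (SD over 9 libraries), followed by Glrb, the glycine receptor beta subunit, at 118 ± 4.65 FPKM, and the ranges of both over the libraries overlapped. Gabbr1 (93.0 ± 3.74 FPKM) and Slc12a5 (87.5 ± 3.20 FPKM) came next and overlapped each other but not Glrb. Slc6a5 (64.8 FPKM), Slc6a9 (59.0 FPKM) and Slc12a2 (52.7 FPKM) followed, each overlapping its neighbour. Gabra3 (43.1 FPKM), Slc32a1 (39.8 FPKM), Gad1 (36.7 FPKM) and Nlgn2 (33.6 FPKM) formed the next run of overlapping genes. Below a gap lay Gabbr2, Glra1, Gabra2 and Gad2 at 19.3 to 23.8 FPKM, each overlapping its neighbour. Gabrb2 stood apart at 12.0 FPKM, and Gabrb1, Gphn, Gabrg1, Gabra5, Gabra4 and Glra3 lay between 9.04 and 6.40 FPKM with overlapping neighbours. Glra2 (4.78 FPKM), Gabrg3 (2.65 FPKM) and Gabrd (0.262 FPKM) each stood clear of the gene above. Glra4 was listed at 0 in all 9 libraries. A count of 0 allows up to 0.0897 CPM in the shallowest library, counting error only. The gene lies wholly inside BC065397 on the opposite strand in GENCODE M21, and BC065397 had 54 to 112 counts per library. The transcript lengths behind the FPKM differed from the M21 exon length by over 1.5 times for 2 genes, Gphn (4.28 times) and Slc12a2 (0.623 times). The other lengths also differed from M21, by less. For some genes they differed in opposite directions, as for Gad1 (0.727 times) and Gad2 (1.47 times). The same held for Glra3 (0.716 times) and Glra2 (1.199 times). The order and the gaps given here thus hold for the deposited lengths and depend on the gene model.

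**Figure D1:**
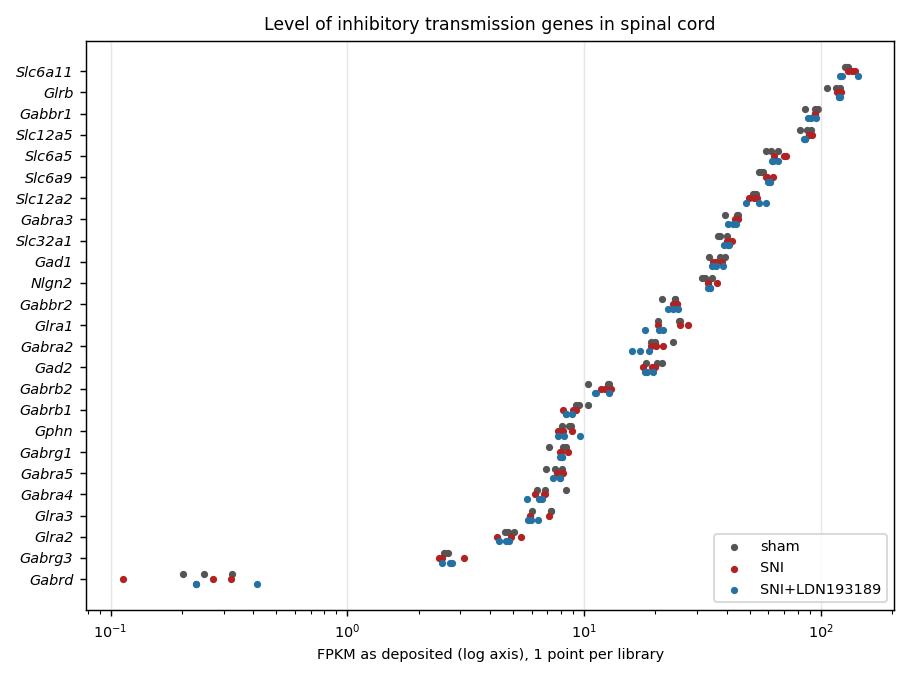
Deposited FPKM of 25 inhibitory genes on a log axis, 1 point per library, coloured by group, genes ordered by the mean over 9 libraries. Glra4, at 0 throughout, cannot be drawn on a log axis; the groups lie on top of each other for nearly every gene, with Slc6a11 at the top and Gabrd at the bottom.

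No difference between the groups passed the test for either enzyme of GABA synthesis. Gad1, which encodes the decarboxylase of the cell body, stood at 207, 224 and 184 CPM in the sham libraries, 204, 213 and 191 CPM in SNI and 193, 203 and 214 CPM in SNI+LDN193189, in the order of replicates 1 to 3. The 3 groups overlapped fully, with log2 fold changes of -0.01 (SE 0.068) for SNI against sham and 0.01 (SE 0.068) for SNI+LDN193189 against SNI, and adjusted p-values of 0.997 and 1.00 in edgeR's quasi-likelihood test with Benjamini-Hochberg adjustment. The 95% intervals of these differences ran from -10.5% to 9.56% and from -9.20% to 11.1%. Gad2, the decarboxylase enriched at nerve terminals, stood at 183, 179 and 154 CPM in sham, 155, 172 and 165 CPM in SNI and 156, 162 and 168 CPM in SNI+LDN193189. Its values also overlapped, with a log2 fold change of -0.07 (SE 0.065) for SNI against sham (adjusted p = 0.961, edgeR) and of -0.08 (SE 0.065) for SNI+LDN193189 against sham (adjusted p = 0.735, edgeR). Gad1 made up 64.9% ± 1.13 of the summed Gad1 and Gad2 FPKM in sham, 65.7% ± 1.42 in SNI and 66.1% ± 0.322 in SNI+LDN193189 (SD, n = 3 each), and the libraries of the groups overlapped. The size of this share depends on the gene model. The lengths behind the FPKM were 5553 bp for Gad1 and 8615 bp for Gad2, and the M21 exon lengths 7639 and 5876 bp. Which of both genes is higher per length is therefore not settled.

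All 4 transporters had a log2 fold change above 0 for SNI against sham, and none passed the test. The general neuron markers lay the same way, with 13 of 14 above 0 and a median of 0.09. Of the astrocyte markers 7 of 11 tested were above 0, with a median of 0.04. With libraries scaled to the general neuron markers the 4 transporters came to 0.04 (Slc32a1), 0.07 (Slc6a5), 0.03 (Slc6a9) and 0.00 (Slc6a11). That scaling lowered genes in general, with a median over all genes of -0.08, against 0.00 in the main analysis. Scaling to astrocyte markers was not done. Slc32a1, the vesicular carrier shared by GABA and glycine, was at 150.3, 165 and 147 CPM in sham, 174, 163 and 164 CPM in SNI and 166, 168 and 158 CPM in SNI+LDN193189. The sham and SNI libraries overlapped through sham replicate 2, and the log2 fold change was 0.11 (SE 0.055, adjusted p = 0.927, edgeR). Of the exon bases of Slc32a1, 24.9% are shared with the antisense gene Gm14205, and whether reads were counted by strand is not given in the sources used here. Slc6a5, the neuronal glycine transporter GlyT2 that marks glycinergic neurons, was at 524, 579 and 495 CPM in sham, 615, 546 and 607 CPM in SNI and 535, 576 and 546 CPM in SNI+LDN193189. SNI replicates 1 and 3 exceeded every other library, while SNI replicate 2 lay within the sham range. Its log2 fold change for SNI against sham was 0.14 (SE 0.064, unadjusted p = 0.0389, adjusted p = 0.927, edgeR), and it came to 0.09 without sham replicate 3 and 0.21 without sham replicate 2. When the fit held the nerve root markers it was 0.08. Slc6a9, the mainly glial glycine transporter GlyT1, was at 222, 237 and 224 CPM in sham, 261, 242 and 237 CPM in SNI and 249.6, 252 and 245 CPM in SNI+LDN193189. All 3 treated libraries exceeded all 3 sham libraries, with a log2 fold change of 0.13 (SE 0.051, adjusted p = 0.548, edgeR), which came to 0.06 with neuron marker scaling. For SNI against sham it was 0.11 (SE 0.051, unadjusted p = 0.0415, adjusted p = 0.927, edgeR), and 0.07 without SNI replicate 1. Slc6a9 shares 27.8% of its exon bases with Ccdc24 on the opposite strand, so its counts may include reads of that gene. Slc6a11 was at 521, 522 and 509 CPM in sham and 537, 550.3 and 556 CPM in SNI, with no overlap between them. Its SNI+LDN193189 libraries, at 489, 588 and 499 CPM, spanned wider than both other groups, and the log2 fold change for SNI against sham was 0.08 (SE 0.063, adjusted p = 0.946, edgeR).

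The chloride transporters were Slc12a5, the neuronal chloride exporter KCC2, and Slc12a2, the chloride importer NKCC1. Their messenger RNA in whole tissue does not give the chloride balance of neurons, and neither protein nor transport was measured. Slc12a5 was at 552, 545 and 493 CPM in sham, 559.7, 565 and 544 CPM in SNI and 523, 533 and 530.4 CPM in SNI+LDN193189. The treated libraries lay below all 3 SNI libraries and inside the sham range, with log2 fold changes of -0.07 (SE 0.052, adjusted p = 1.00, edgeR) against SNI and 0.00 (SE 0.052, adjusted p = 0.992, edgeR) against sham. For SNI against sham the change was 0.07 (SE 0.052, adjusted p = 0.945, edgeR), and its 95% interval ran from -2.84% to 13.4%. Without sham replicate 3 that change of Slc12a5 was 0.02, and it was -0.02 with the nerve root markers as a covariate and -0.01 with neuron marker scaling. Without sham replicate 1 it was 0.10, and 2 of the 21 alternatives had the opposite sign. Slc12a2 was at 347, 361 and 355 CPM in sham, 359, 364 and 335 CPM in SNI and 374, 332 and 399.7 CPM in SNI+LDN193189. The groups overlapped, and its log2 fold changes were -0.01 (SE 0.063, adjusted p = 0.999, edgeR) for SNI against sham and 0.06 (SE 0.063, adjusted p = 1.00, edgeR) for SNI+LDN193189 against SNI. The ratio of Slc12a5 to Slc12a2 FPKM was 1.76, 1.67 and 1.53 in the sham libraries, 1.72, 1.72 and 1.80 in SNI and 1.55, 1.77 and 1.47 in SNI+LDN193189. Slc12a5 FPKM thus stood above Slc12a2 FPKM in every library, and the groups overlapped. The size of the ratio depends on the gene model, since the length used for Slc12a2 was 0.623 times the M21 exon length. The difference of the log2 ratio was 0.08 for SNI minus sham (exact two-sided permutation p = 0.3, Benjamini-Hochberg 0.45 over the 3 pairs), -0.13 for SNI+LDN193189 minus SNI (exact permutation p = 0.3, adjusted 0.45) and -0.05 for SNI+LDN193189 minus sham (exact permutation p = 0.8, adjusted 0.8). With 3 samples a group the exact test cannot give a p under 0.1.

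**Figure D2:**
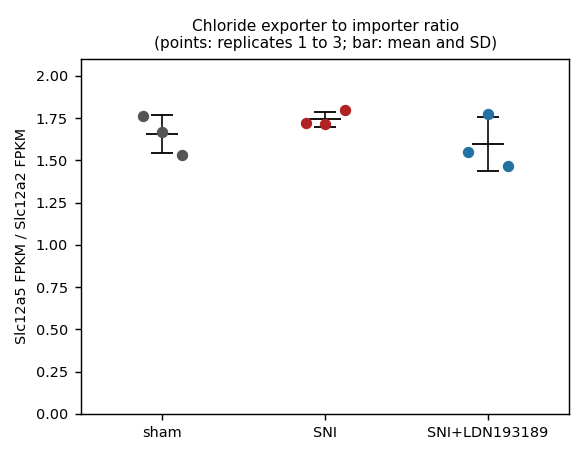
Ratio of Slc12a5 to Slc12a2 FPKM in each library (points, replicates 1 to 3 from left to right) with the group mean and SD (bars, n = 3). The SNI libraries lie close together, between 1.72 and 1.80, inside the span of 1.47 to 1.77 of the SNI+LDN193189 libraries except for SNI replicate 3.

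The scaffold and adhesion genes of inhibitory synapses overlapped between all groups. Gphn encodes gephyrin, which anchors glycine and GABA-A receptors, and was at 137, 144 and 126 CPM in sham, 133, 143 and 123 CPM in SNI and 132, 126 and 155 CPM in SNI+LDN193189. The groups overlapped, and its log2 fold changes were -0.03 (SE 0.081, adjusted p = 0.994, edgeR) for SNI against sham and 0.05 (SE 0.081, adjusted p = 1.00, edgeR) for SNI+LDN193189 against SNI. Nlgn2, the adhesion protein neuroligin 2 of inhibitory synapses, ranged from 177 to 206 CPM over the 9 libraries, with group means of 187 ± 12.9 CPM in sham, 197 ± 7.77 CPM in SNI and 194 ± 1.01 CPM in SNI+LDN193189 (SD, n = 3 each). Its log2 fold change for SNI against sham, 0.07 (SE 0.055), was smaller than the spread within sham.

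GABA-A receptors are pentamers whose alpha, beta and gamma or delta subunits set their location and drug response. Per transcript length, Gabra3 was the highest of the alpha subunits among the 26 genes at 43.1 FPKM, above Gabra2 at 19.5 FPKM, Gabra5 at 7.75 FPKM and Gabra4 at 6.69 FPKM. Gabrb2 at 12.0 FPKM stood above Gabrb1 at 9.04 FPKM with no overlap over the 9 libraries, and Gabrg1 at 8.01 FPKM above Gabrg3 at 2.65 FPKM. Levels of messenger RNA do not give the make-up of receptors, since subunits are expressed in different cells.

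Gabra2, an alpha subunit studied as a target for relief of pain without sedation, gave the smallest p of the 25 tested genes. It was at 131, 109 and 109 CPM in sham, 123, 112 and 106 CPM in SNI and 105, 97.5 and 89.2 CPM in SNI+LDN193189. Every treated library lay below every library of both other groups, and sham replicate 1 stood well above the other 2 sham libraries. The log2 fold change was -0.22 (SE 0.084, unadjusted p = 0.0201, adjusted p = 1.00, edgeR) against SNI and -0.26 (SE 0.084, unadjusted p = 0.00926, adjusted p = 0.498, edgeR) against sham, with 95% intervals of -24.5% to -2.83% and -26.3% to -5.11%. Neither passed the threshold. Without sham replicate 1, the library with the muscle transcripts, the difference from sham was -0.16, and without SNI replicate 1 the difference from SNI was -0.17. The difference of Gabra2 from SNI was -0.14 with the nerve root markers as a covariate. Other settings gave larger differences. From sham it was -0.33 with neuron marker scaling, -0.32 with the nerve root covariate and -0.32 without SNI+LDN193189 replicate 1. From SNI it was -0.28 without that replicate. With SNI against sham the change was -0.03 (SE 0.084, adjusted p = 0.992, edgeR). Across its alternatives the adjusted p of Gabra2 for SNI+LDN193189 against sham ranged from 0.171 to 0.853.

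Gabrb1, a beta subunit of the same gene cluster on chromosome 5, was at 149, 141 and 132 CPM in sham, 121, 135 and 129.6 CPM in SNI and 123, 131 and 123 CPM in SNI+LDN193189. All treated libraries lay below all sham libraries, while SNI replicate 2 lay within the sham range. The log2 fold changes from sham were -0.13 (SE 0.059, unadjusted p = 0.0416, adjusted p = 0.927, edgeR) for SNI and -0.16 (SE 0.059, unadjusted p = 0.0143, adjusted p = 0.537, edgeR) for SNI+LDN193189, and between both injured groups it was -0.03 (SE 0.059, adjusted p = 1.00, edgeR). For SNI it came to -0.09 without sham replicate 1, to -0.09 without SNI replicate 1 and to -0.21 with neuron marker scaling. The other cluster genes did not follow one pattern. Gabra4 had group means of 29.8 ± 4.21, 27.7 ± 1.73 and 26.6 ± 2.05 CPM (sham, SNI and SNI+LDN193189, SD, n = 3 each) and was highest, like Gabra2, in sham replicate 1, at 34.7 CPM. Gabrg1 had 59.6 ± 6.26, 62.1 ± 2.96 and 61.4 ± 0.960 CPM, with its lowest value, 52.7 CPM, in sham replicate 3.

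The remaining GABA-A subunits overlapped between all groups. Gabra3 had group means of 177 ± 14.6, 183 ± 4.20 and 177 ± 8.13 CPM in the same order. Gabra5, an extrasynaptic subunit, had 31.2 ± 3.13, 33.4 ± 1.46 and 32.6 ± 1.38 CPM, Gabrb2 had 99.6 ± 12.5, 104 ± 6.15 and 99.0 ± 7.77 CPM and Gabrg3 had 25.9 ± 0.667, 27.0 ± 3.72 and 26.8 ± 1.44 CPM. Their log2 fold changes lay between -0.07 and 0.10 over the 3 comparisons. Gabrd, the delta subunit of receptors for tonic inhibition, had only 8 to 28 counts per library, and its 95% interval for SNI against sham ran from -54.7% to 85.9%, so a difference of that size was not detectable at this depth. All 9 Gabrd counts were even, as were 70.7 to 71.8% of the counts above 0 in each library, so a count may hold both mates of a read pair and stand for fewer fragments, which would also raise the limit given for Glra4. GABA-B receptors need both subunits at the membrane. Gabbr1 had 535 ± 41.0, 549 ± 9.34 and 534 ± 19.6 CPM and Gabbr2 128 ± 11.0, 136 ± 4.78 and 133 ± 7.32 CPM, and the lowest library of both was sham replicate 3.

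Glycine receptors in adult cord are built mainly from alpha 1 and beta subunits, and these were the leading glycine receptor genes here. Glra1 made up 66.9% ± 2.37 of the summed alpha subunit FPKM (SD over 9 libraries), Glra3 18.9% ± 1.10 and Glra2 14.2% ± 1.51. These shares, and the order of Glra3 and Glra2, depend on the gene model. Glra1 was at 60.0, 62.4 and 48.5 CPM in sham, 61.8, 66.1 and 48.6 CPM in SNI and 43.5, 52.6 and 49.8 CPM in SNI+LDN193189. Sham replicate 3 and SNI replicate 3 were as low as the treated libraries, so the groups overlapped. The log2 fold change for SNI+LDN193189 against SNI was -0.28 (SE 0.134, unadjusted p = 0.0696, adjusted p = 1.00, edgeR), with a 95% interval of -33.0% to 1.90%, and it came to -0.40 without SNI replicate 3, -0.18 without SNI replicate 2, -0.20 without SNI+LDN193189 replicate 1 and -0.13 with the nerve root markers as a covariate. Against sham it was -0.23 (SE 0.134, adjusted p = 0.666, edgeR), and for SNI against sham 0.05 (SE 0.133, adjusted p = 0.993, edgeR). Glra1 had the widest error of the 24 genes with more than a few counts, so it is the one for which a difference was least well bounded. Glrb was at 433, 463 and 392 CPM in sham, 468, 445 and 435 CPM in SNI and 454, 455 and 450.5 CPM in SNI+LDN193189. The treated libraries lay close together, inside the ranges of both other groups, with log2 fold changes of 0.07 (SE 0.059, adjusted p = 0.958, edgeR) for SNI against sham and 0.01 (SE 0.059, adjusted p = 1.00, edgeR) for SNI+LDN193189 against SNI. The ratio of Glrb to Glra1 FPKM was 4.83 ± 0.291 in sham, 4.94 ± 0.711 in SNI and 5.98 ± 0.589 in SNI+LDN193189 (SD, n = 3 each). The treated libraries, at 5.52 to 6.64, overlapped SNI, at 4.29 to 5.70, and lay above sham, at 4.60 to 5.15. This ratio was not tested, and its size depends on the gene model. Glra2, the subunit that prevails before birth, had 18.1 ± 1.23, 18.4 ± 2.01 and 17.6 ± 0.820 CPM, and Glra3, found in the superficial dorsal horn, had 44.9 ± 5.38, 41.7 ± 4.65 and 40.0 ± 2.08 CPM.

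**Figure D3:**
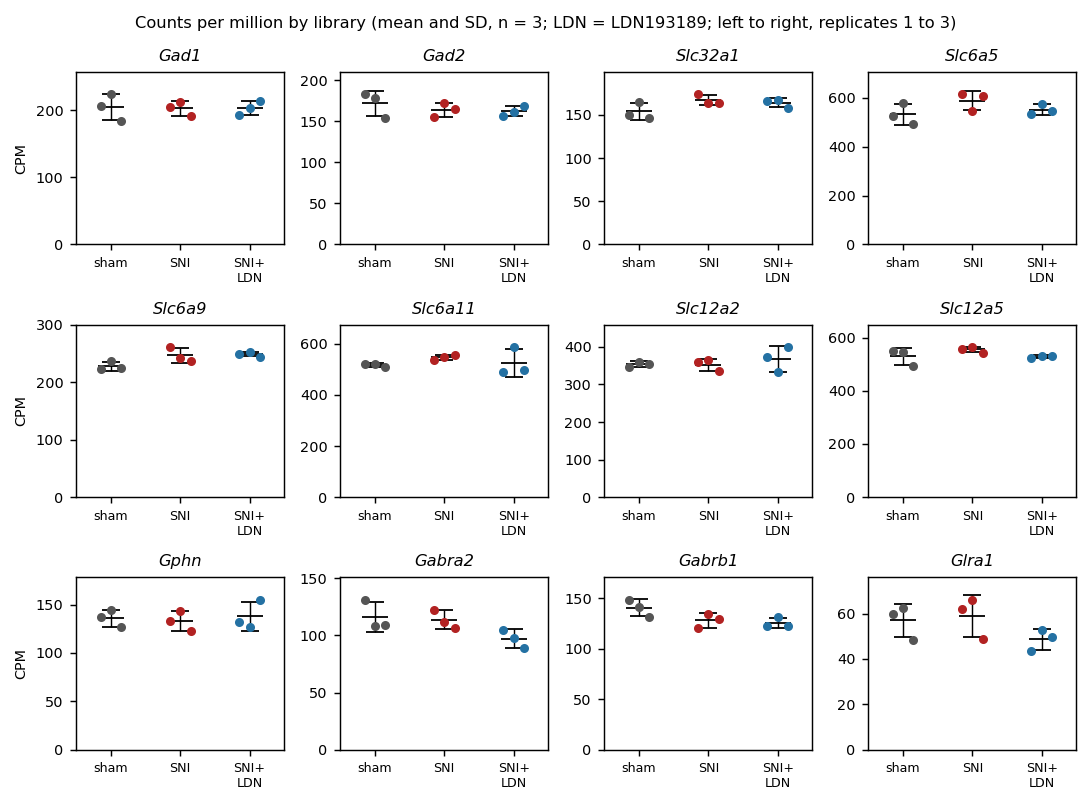
CPM of 12 inhibitory genes in each library (points, replicates 1 to 3 from left to right) with group means and SD (n = 3), each axis starting at 0. Gabra2 lies lower in the SNI+LDN193189 libraries, at 89.2 to 105 CPM, than in every other library, and most other genes overlap between the groups.

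Counts over the inhibitory genes were read against the same counts over all genes tested. After adjustment 0 of 25 were called in each comparison, against 0% of all genes for SNI against sham, 0.00548% for SNI+LDN193189 against SNI and 0.0164% for SNI+LDN193189 against sham, and DESeq2 and limma called 0 of them as well. At an unadjusted p under 0.05 there were 3 for SNI against sham (12.0%, against 5.33% of all genes), 1 for SNI+LDN193189 against SNI (4.00%, against 3.88%) and 3 for SNI+LDN193189 against sham (12.0%, against 8.56%). Libraries of both groups did not overlap for 1 gene in the first comparison (Slc6a11, against 8.87% of all genes), 2 in the second (Slc12a5 and Gabra2, against 11.3%) and 3 in the third (Slc6a9, Gabra2 and Gabrb1, against 13.1%). The joint test over the 3 groups called 0 of 25 (0.00548% of all genes) and gave 2 under an unadjusted threshold of 0.05, against 5.94% of all genes. These were Gabra2 (adjusted p = 0.786, edgeR) and Gabrb1 (adjusted p = 0.821, edgeR). The comparisons share libraries, since SNI enters the first 2 and sham the first and the last.

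Within the main fit the errors were small enough to bound most differences. The median SE of the 25 genes was 0.065 on the log2 scale, against 0.118 for all genes tested. Leaving Gabrd aside, the whole 95% interval lay within 25% in either direction for 23 of 24 genes for SNI against sham, 23 for SNI+LDN193189 against SNI and 22 for SNI+LDN193189 against sham. Within 20% it lay for 21, 22 and 20 of them. The widest bounds on a fall were Gabra4 at -19.6% for SNI against sham and Glra1 at -33.0% and -30.8% in the other 2 comparisons, in that order. In the same order, the widest bounds on a rise were 27.3% (Glra1), 16.8% (Gphn) and 18.5% (Gabrg3). These intervals leave out the moves between settings. With the nerve root covariate the log2 fold change of Glra1 for SNI against sham was -0.21, against 0.05 in the main fit. The median of the 25 genes was then -0.05, against 0.05.

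**Figure D4:**
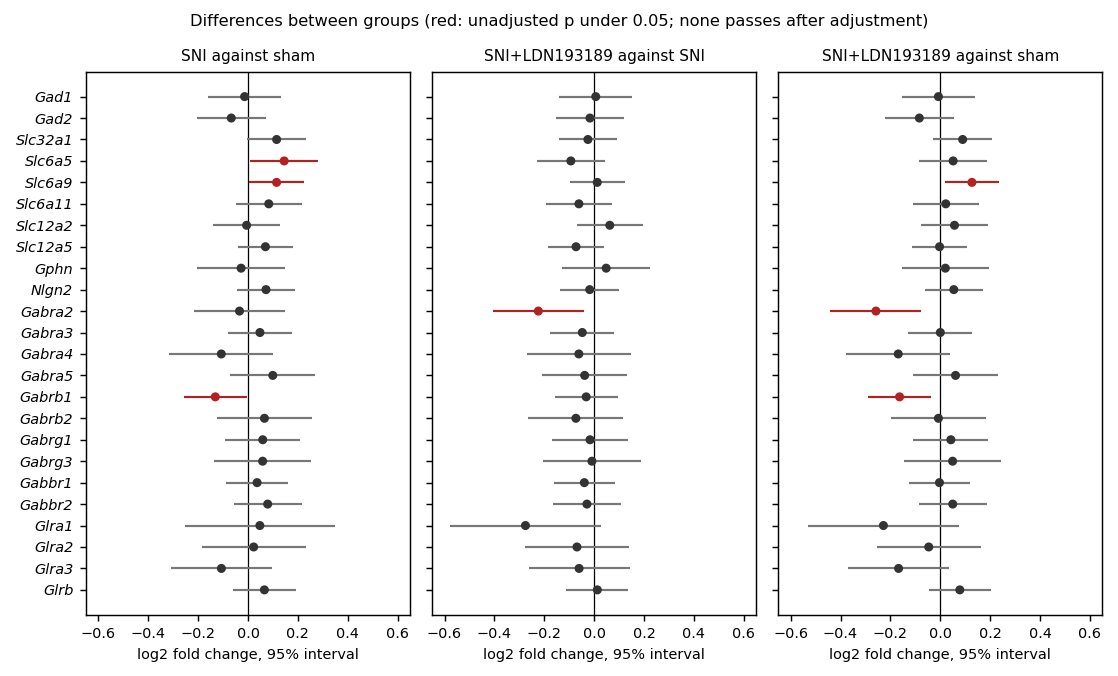
Log2 fold changes with 95% intervals of 24 inhibitory genes in the 3 comparisons (edgeR), red where the unadjusted p is under 0.05. Gabra2 is lower in SNI+LDN193189 in both comparisons, Gabrb1 lies below 0 against sham, and no gene passes after adjustment.

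Direction was counted with no test. For SNI against sham 16 of 25 genes had a log2 fold change above 0 (50.1% of all genes did), with a median of 0.05 (0.00 over all genes). For SNI+LDN193189 against SNI there were 6 (49.8% of all genes), with a median of -0.03, and against sham 14 (48% of all genes), with a median of 0.02. These counts moved in both directions with single libraries, sham replicate 3 among them. That library was the lowest of the 9 for 13 of the 25 genes, lay below the mean of the 9 for 22, and had a median deviation of -0.12 on the log2 scale. Without it, 10 genes were above 0 for SNI against sham, with a median of -0.02, and 8 for SNI+LDN193189 against sham. With libraries scaled to the neuron markers the counts were 6 for SNI against sham, where 23.8% of all genes were above 0, and 4 for SNI+LDN193189 against sham, where 28% were. When the fit held the nerve root marker level as a covariate they were 7 for SNI against sham, 17 for SNI+LDN193189 against SNI and 9 for SNI+LDN193189 against sham. Without SNI replicate 2 the count for SNI+LDN193189 against SNI was 12 and without SNI replicate 3 it was 2.

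**Figure D5:**
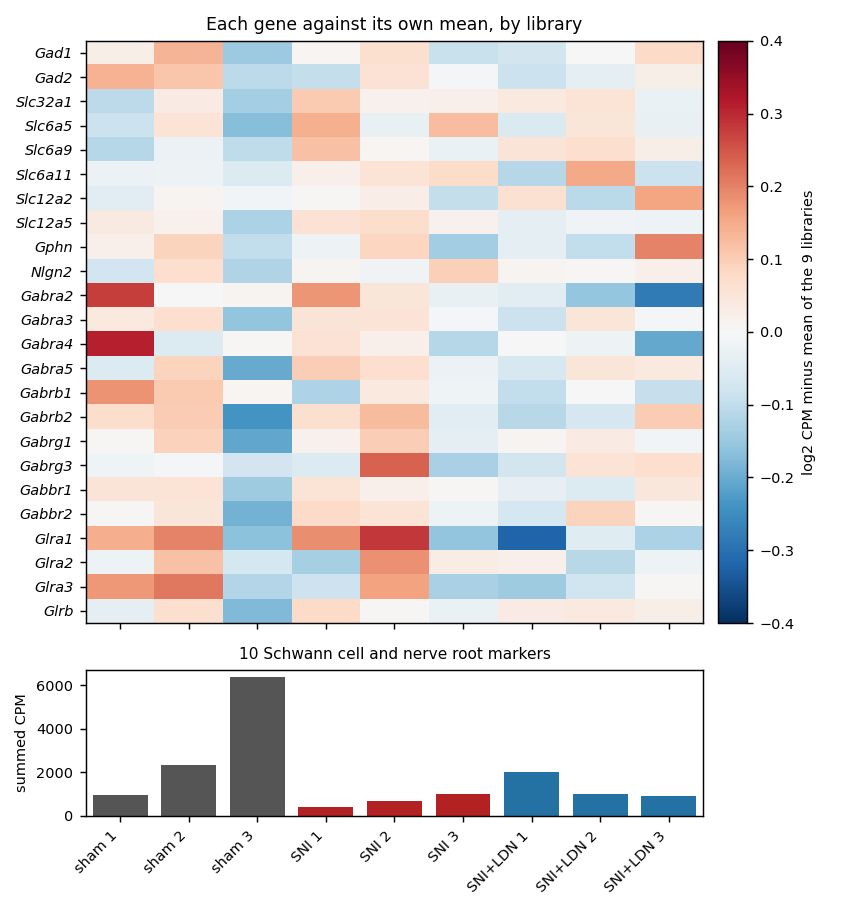
Log2 CPM of 24 inhibitory genes minus the mean of each gene over the 9 libraries (upper panel, red above and blue below), over the summed CPM of 10 Schwann cell and nerve root markers in the same libraries (lower panel). Sham replicate 3 is blue for most genes and holds the highest nerve root sum, 6381 CPM, and SNI replicate 2 is red for most genes.

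The other genes of the pathway were read from 6 lists of 90 genes outside the 26, and none was called in any comparison. Chloride balance genes other than the pair above had 2 of 14 at an unadjusted p under 0.05 for SNI against sham (5.33% of all genes), both lower, and 0 in the other comparisons. These were the potassium-chloride cotransporters Slc12a4 (log2 fold change -0.25, SE 0.103) and Slc12a7 (-0.42, SE 0.192), and both were highest in sham replicate 3, at 32.7 and 11.0 CPM. Genes that supply or break down glycine had 1 of 10 for SNI against sham (5.33% of all genes), Slc7a10, a transporter of glycine and serine in astrocytes (0.18, SE 0.065). They had 5 of 10 for SNI+LDN193189 against SNI (3.88% of all genes), 4 higher and 1 lower, and 3 of 10, all higher, for SNI+LDN193189 against sham (8.56% of all genes). The median over the 10 genes was 0.04, 0.06 and 0.10 in these 3 comparisons, against 0.00, 0.00 and -0.01 over all genes. Phgdh and Psat1, enzymes of serine synthesis, were at 0.20 (SE 0.073) and 0.21 (SE 0.083) against SNI, and Gcsh, a carrier protein of the glycine cleavage system, at 0.12 (SE 0.053). Against sham the same genes were at 0.22, 0.24 and 0.23, with the lowest adjusted p, 0.282 (edgeR), for Gcsh. Gcsh was at 61.1, 63.1 and 59.9 CPM in sham, 66.2, 65.9 and 66.4 CPM in SNI and 74.9, 72.1 and 69.0 CPM in SNI+LDN193189, with no overlap between the groups. Slc7a10 was at -0.15 (SE 0.065) against SNI, the opposite direction.

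Subunits and partners outside the 26 had 0 at an unadjusted p under 0.05 for SNI against sham (5.33% of all genes). For SNI+LDN193189 against SNI (3.88% of all genes) there was 1 of the 7 tested GABA-A and rho subunits. There were also 1 of 10 genes of GABA uptake and breakdown and 1 of 23 receptor partners. For SNI+LDN193189 against sham (8.56% of all genes) the counts were 1, 2 and 1, in that order. Gabrr2, a rho subunit, was at 0.63 (SE 0.239) for SNI+LDN193189 against SNI and 0.79 (SE 0.240) against sham. It had 4.40 ± 0.992 CPM in SNI and 6.82 ± 1.72 CPM in SNI+LDN193189 (SD, n = 3 each). Among 10 genes of GABA uptake and breakdown, Slc38a5, an amino acid transporter, was at -0.38 (SE 0.173) for SNI+LDN193189 against SNI and -0.59 (SE 0.173) against sham, and Slc6a12, a betaine and GABA transporter, at -0.91 (SE 0.321) against sham with 30 to 57 counts in every library but sham replicate 3, which had 98. Among 23 receptor partners and scaffold genes Kctd16, an auxiliary subunit of GABA-B receptors, was at -0.21 (SE 0.073) against SNI and -0.23 (SE 0.072) against sham. Its libraries were at 44.8, 43.3 and 38.0 CPM in sham, 41.0, 41.3 and 41.9 CPM in SNI and 34.7, 38.1 and 34.8 CPM in SNI+LDN193189, so 1 treated library came up to the lowest sham library.

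Markers of inhibitory interneurons showed no common direction. Of 22 such genes 7 were above 0 for SNI against sham, 10 for SNI+LDN193189 against SNI and 12 for SNI+LDN193189 against sham, with medians of -0.06, -0.04 and 0.01. Their summed level was 559 to 667 CPM in sham, 606 to 635 CPM in SNI and 612 to 623 CPM in SNI+LDN193189. The sum of 667 CPM was that of sham replicate 1. It includes Pvalb, which skeletal muscle also makes and which was highest in that library. At an unadjusted p under 0.05 there were 2 of 22 for SNI against sham, both higher (5.33% of all genes). There were 0 for SNI+LDN193189 against SNI (3.88% of all genes). For SNI+LDN193189 against sham 1 was higher and 2 were lower (8.56% of all genes). En1, a transcription factor of ventral inhibitory interneurons, was at 0.69 (SE 0.224) and Calb2, calretinin, at 0.19 (SE 0.071) for SNI against sham. Sst, the somatostatin precursor, was at -0.24 (SE 0.063, adjusted p = 0.355, edgeR) for SNI+LDN193189 against sham, Cdh3 at -0.57 (SE 0.197) and Calb2 at 0.16 (SE 0.071). Sst was at 70.0, 71.4 and 67.6 CPM in sham, 59.9, 70.8 and 63.1 CPM in SNI and 58.5, 60.3 and 58.3 CPM in SNI+LDN193189. In cord Sst and Calb2 are made by excitatory as well as inhibitory neurons, and the summed excitatory neuron markers overlapped between the groups, at 631 to 706 CPM in sham, 572 to 653 CPM in SNI and 609.7 to 656 CPM in SNI+LDN193189.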

How the data were processed

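The authors deposited tables of read counts and of FPKM (fragments per transcript length and library size) per gene symbol for 9 poly(A)-selected, dUTP-stranded, paired-end libraries, per the labels' protocols. The deposited counts are whole numbers, of which 70.7 to 71.8% of those above 0 in a library are even. The genome build was mm10, per the submitters' processing notes; aligner, counter and strand setting are not given in the sources used here. Extraction is described for cell lines, whereas the tissue is spinal cord. Genes of low count were removed with filterByExpr, libraries were scaled by TMM (0.984 to 1.02), and edgeR 4.0.16 (R 4.3.3) fitted all 9 libraries in a robust quasi-likelihood model with 6 residual degrees of freedom, Benjamini-Hochberg over 18245 genes, threshold 0.05. CPM uses the TMM-scaled totals. The chloride transporter ratio was tested by exact permutation. The alternatives used DESeq2 1.42.0 and limma 3.58.1 with log2 of FPKM plus 0.1 or plus 1, among others. The tests were checked on simulated data for SNI against sham. Of planted log2 changes of 0.3, 26% were called, and of planted changes of 1, 94%. False calls made up 7.69% of the calls. The changes were planted in 100 genes for each size, drawn from genes of higher count. Most changes of size 0.3 in such genes would thus not be called. The share for the inhibitory genes was not simulated. Their median SE was 0.065, against 0.118 for all genes tested. The members and lists were chosen with earlier results of these data known. Full values are given for members with an unadjusted p under 0.05 or among the 3 smallest in a comparison and for 9 core genes; others are summarised, and from each list of other genes those with an unadjusted p under 0.05, at most 4 per comparison. Nlgn2, Slc6a11 and single library values of Gabra4, Gabrg1, Gcsh, Kctd16 and Sst were chosen after their values were seen. Same-numbered samples of different groups did not deviate together (correlations of -0.109 to 0.144). Some further genes of inhibitory synapses are not reported here.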

Additional observations from a re-analysis of the deposited data

How the results depend on the processing

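None of the 25 tested members was called in any comparison under the main settings or any of the 21 alternatives (0 calls among 1572 values, of which 124 had the opposite sign). The number of all genes called did move. For SNI against sham it was 0 in the main analysis, 24 with DESeq2, 17 with the nerve root covariate, and 0 to 38 when 1 library was left out (38 without sham replicate 1). For SNI+LDN193189 against sham it was 3, against 73 with DESeq2, 30 with no filter on low counts, 14 with the nerve root covariate, 1 each with log2 FPKM plus 0.1, with log2 FPKM plus 1 and with a mean count of at least 50, and 1 to 17 when 1 library was left out (17 without SNI replicate 3, 7 without sham replicate 1 or 2, 1 without SNI replicate 2 or SNI+LDN193189 replicate 1 or 3). For SNI+LDN193189 against SNI it was 1, against 5 with DESeq2, 3 with only the 2 groups compared, 2 with limma-voom, with no filter or with the nerve root covariate, 0 with either FPKM scale and with neuron marker scaling, and 0 to 2 when 1 library was left out (0 without SNI replicate 1 or 2 or SNI+LDN193189 replicate 3). With the replicate block, the number called was 0 for SNI+LDN193189 against SNI, 0 for SNI against sham and 4 for SNI+LDN193189 against sham; 7 of 18 best correlations fell on the same number, so the numbers were not taken to pair the samples. The member median for SNI against sham, 0.05, was -0.0283 with neuron marker scaling, -0.0546 with the nerve root covariate and -0.0210 to 0.0897 when 1 library was left out; for SNI+LDN193189 against sham, 0.02, it was -0.0517 with neuron marker scaling, -0.0241 with the nerve root covariate and -0.0416 without sham replicate 3; for SNI+LDN193189 against SNI, -0.03, it was 0.0283 with the nerve root covariate. Members above 0 numbered 16 for SNI against sham, against 6 with neuron marker scaling, 7 with the nerve root covariate and 10 to 21 with 1 library left out; 14 for SNI+LDN193189 against sham, against 4, 9 and 8 to 19; and 6 for SNI+LDN193189 against SNI, against 17 with the nerve root covariate and 2 to 12 with 1 library left out. The cause of these moves was not tested. With neuron marker scaling the median of all genes was -0.0819 for SNI against sham (0.00 in the main analysis) and -0.0785 for SNI+LDN193189 against sham (-0.01 in the main analysis). The log2 ratio of the chloride transporters kept its values within 0.02 to 0.12, -0.21 to -0.07 and -0.13 to 0.00 for the 3 comparisons.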

Other observations

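Pvalb, a marker of inhibitory interneurons that skeletal muscle also makes, was at 145 CPM in sham replicate 1, the library in which muscle markers summed to 1053 CPM, and at 76.7 to 99.1 CPM in the other 8. It was chosen for description after its values were seen.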
